A study of Mus musculus with 4 samples.

Results

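Proliferating cells of the adult mouse lung were described in 1 droplet single-cell RNA data set. The cells were chosen by their own counts of 6 genes: a cell was called cycling when at least 3 of Mki67, Top2a, Birc5, Cenpf, Cdk1 and Ccnb1 had 1 or more UMIs (a UMI is 1 counted RNA molecule). Only barcodes that held 500 genes or more, with mitochondrial RNA making up no more than 10% of their UMIs, were used. Of 9391 barcodes that passed this filter, 62 were cycling (0.660%, 95% Clopper-Pearson interval 0.507 to 0.846%), out of 11118 deposited barcodes. The mice, about 8 weeks old, carried 1 Gli1-CreERT2 allele and 1 Rosa26 mTmG allele beside wild type, and all had been given tamoxifen. In such mice, cells with active Gli1, a target gene of hedgehog signalling, switch from membrane tdTomato to membrane GFP, so the labelled cells are mostly mesenchymal, and there was no group without the allele or the drug. Live lung cells negative for CD45 (leukocyte) and CD31 (endothelial) were sorted, so both of these kinds are depleted by design. The 4 sample entries carry the same labels, their cells lie in 1 matrix with 1 barcode suffix, and all barcodes are distinct. They were treated as 1 sample, so no comparison here has a test and every interval covers counting error only.

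As background, a dividing cell first duplicates its DNA with the MCM helicase, DNA polymerases and nucleotide-making enzymes, and makes histones in step with it. It then builds the mitotic kinases, cyclin B, the spindle and the kinetochores, and destroys many of them at the end of mitosis through the anaphase-promoting complex. Mki67 coats mitotic chromosomes, Top2a untangles DNA, Birc5 (survivin) belongs to the chromosomal passenger complex, Cenpf to the outer kinetochore, and Cdk1 with Ccnb1 (cyclin B) forms the kinase that starts mitosis. In the healthy adult lung turnover is slow, and alveolar type 2 cells, which make surfactant, are the stem cells that renew the alveolar epithelium.

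The promoters of the genes that chose the cells are shown because mitotic genes share known elements: CCAAT boxes, bound by NF-Y, and the cell cycle genes homology region (CHR), bound by the DREAM and MuvB complexes that hold these genes off in resting cells and on in late cell cycle. E2F sites are typical of replication genes. The 150 bases just before the RefSeq start site, outside the transcript, were read from RefSeq on build GRCm38.p6, and capitals mark matches on either strand to the letters TTTGAA, with a second form spelled TTCGAA, for the CHR, to the letters CCAAT for the CCAAT box, and to the letters TTCCCGC, with a second form spelled TTGGCGC, for E2F. The windows lie at chr7:135716380-135716529 on the minus strand, chr11:99024190-99024339 on the minus strand, chr10:69352913-69353062 on the minus strand, chr13:100786487-100786636 on the minus strand, chr1:189688087-189688236 on the minus strand, chr11:117849087-117849236 on the plus strand and, for Ube2c, chr2:164769779-164769928 on the plus strand. Ube2c, the ubiquitin-conjugating enzyme of the anaphase-promoting complex, was not used in the rule and is shown for its high ratio below.
Mki67: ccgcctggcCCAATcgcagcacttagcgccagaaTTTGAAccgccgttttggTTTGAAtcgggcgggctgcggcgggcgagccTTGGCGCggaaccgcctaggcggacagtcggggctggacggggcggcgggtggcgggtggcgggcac
Top2a: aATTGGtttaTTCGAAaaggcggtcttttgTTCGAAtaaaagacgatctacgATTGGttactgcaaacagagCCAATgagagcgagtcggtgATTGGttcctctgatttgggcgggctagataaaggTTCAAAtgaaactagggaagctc
Cdk1: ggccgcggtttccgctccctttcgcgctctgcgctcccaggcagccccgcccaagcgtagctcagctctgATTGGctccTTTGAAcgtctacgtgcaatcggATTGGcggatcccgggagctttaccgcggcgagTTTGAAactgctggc
Ccnb1: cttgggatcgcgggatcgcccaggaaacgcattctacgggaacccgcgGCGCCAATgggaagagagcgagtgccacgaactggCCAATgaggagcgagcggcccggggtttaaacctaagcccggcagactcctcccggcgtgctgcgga
Cenpf: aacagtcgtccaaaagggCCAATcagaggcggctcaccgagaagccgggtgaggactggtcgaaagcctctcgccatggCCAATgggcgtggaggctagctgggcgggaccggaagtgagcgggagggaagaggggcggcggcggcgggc
Birc5: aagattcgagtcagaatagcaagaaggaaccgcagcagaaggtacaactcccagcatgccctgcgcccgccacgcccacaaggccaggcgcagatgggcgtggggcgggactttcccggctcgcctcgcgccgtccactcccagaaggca
Ube2c: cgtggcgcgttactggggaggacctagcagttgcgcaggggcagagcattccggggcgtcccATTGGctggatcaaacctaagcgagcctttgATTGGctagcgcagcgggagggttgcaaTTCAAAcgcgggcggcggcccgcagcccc

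Of the 6 rule genes, 5 held a CCAAT box in this window and 4 held at least 2, 3 held a CHR match together with a CCAAT box, and 2 held an E2F match. Top2a had 3 CHR and 4 CCAAT matches and Cdk1 had 2 of each. In Ccnb1 the E2F match and 1 CCAAT box overlap, and Birc5 had none of these letters in the window. Over 32851 promoters of 27025 genes, windows of the same length held a CHR match in 9.70%, a CCAAT box in 24.5% and an E2F match in 3.87%. Among the cycle gene lists used below, 25 of 31 spindle, kinetochore and cytokinesis genes were in the table, and 66.7% of their 27 promoters held a CCAAT box and 37.0% a CHR match. For replication-dependent histones, 12 of 14 genes were found, 12 of them through the older symbols as synonyms, and 12 of 12 promoters held a CCAAT box. Of the replication list 27 of 36 genes were found, and 8 of their 30 promoters held an E2F match (26.7%), 15 a CCAAT box and 2 a CHR match. Of the mitotic regulator list 22 of 28 genes were found. Of their 23 promoters 18 held a CCAAT box (78.3%), 5 a CHR match and 0 an E2F match. A smaller part of these lists was found than of the spindle and histone lists, so their values cover only the genes found. A match is a run of letters, not a measured binding site.

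The cycling cells fell mainly into the epithelial type 2 and the fibroblast compartment. Type 2 cells (Sftpc at least 5% of UMIs; Sftpc encodes surfactant protein C) numbered 1700, of which 29 cycled (1.71%, 1.15 to 2.44%). Fibroblasts (Col1a2 at least 3 UMIs; Col1a2 is a chain of type I collagen) numbered 6193, of which 26 cycled (0.420%, 0.274 to 0.615%). None of the 62 cells with Ptprc (CD45, the leukocyte antigen) cycled, which allows a share of up to 4.84% by the limit of 3 counts and 5.78% by the exact interval. A further 3 of 340 cells that met more than 1 compartment rule cycled, each by Sftpc and Col1a2, as did 4 of 1096 cells that met none. Ciliated cells, which do not divide once mature, served as the background for stray marker RNA: among 229 cells with at least 5 Tppp3 UMIs and at least 1 Ccdc153 UMI and no type 2 or fibroblast call, 1 met the cycling rule (0.437%, 0.0111 to 2.41%). The fibroblast share is no higher than that value, whose interval is wide. Median depths were 9497 UMIs in type 2 cells, 7814 in fibroblasts and 11225 in these ciliated cells.

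**Figure D1:**
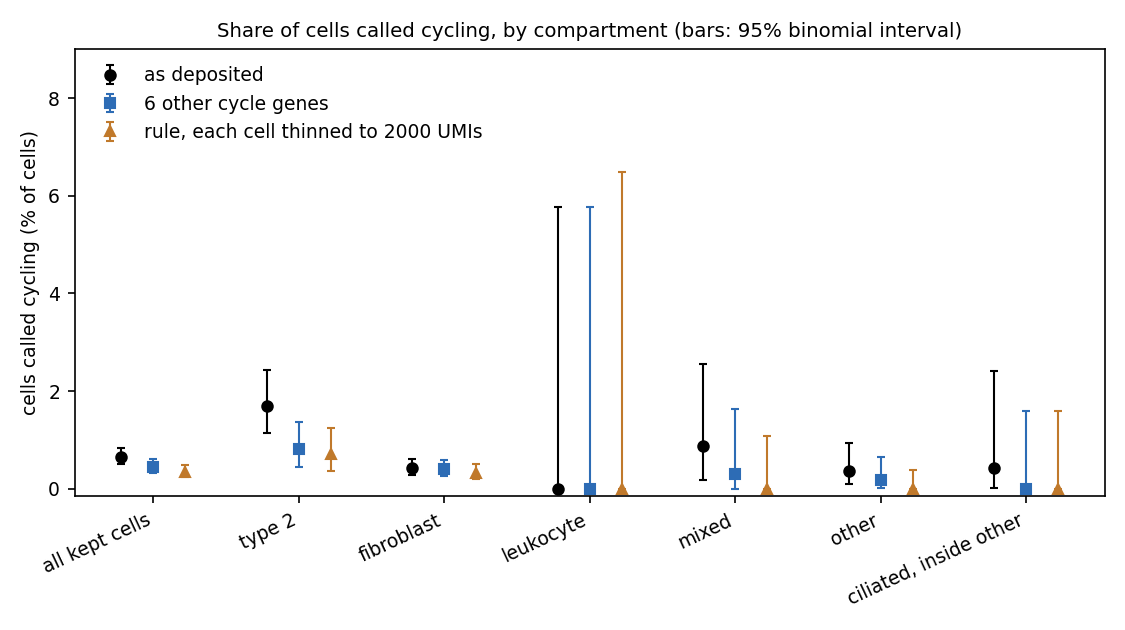
Share of cells called cycling (% of cells, vertical axis) in all kept cells and in each compartment, by the rule, by 6 other cycle genes and by the rule after thinning each cell to 2000 UMIs, with 95% binomial intervals. The type 2 share is 1.71% by the rule, 0.824% by the other genes and 0.710% after thinning, and the fibroblast share 0.420%, 0.404% and 0.325%.

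Type 2 cells had a higher share than fibroblasts in each of these readings, but the size of the gap varied, and the small mixed set lay above fibroblasts by the rule and below them in the other readings. With each cell thinned to 2000 UMIs, which left out 9 type 2 cells, 38 fibroblasts and no cycling cell, 12 of 1691 type 2 cells (0.710%, 0.367 to 1.24%) and 20 of 6155 fibroblasts (0.325%, 0.199 to 0.501%) met the rule, and the intervals overlap. At 5000 UMIs the counts were 19 of 1622 (1.17%, 0.707 to 1.82%) and 26 of 5050 (0.515%, 0.337 to 0.753%), and the thinned ciliated background was 0 of 229 at 2000 UMIs and 0 of 222 at 5000, which allows up to 1.31% and 1.35%. A second set of 6 cycle genes, Ccna2, Cdc20, Tpx2, Hmmr, Nusap1 and Ube2c, again with at least 3 detected, found 42 cells. All 42 lay within the 62, 14 of 29 type 2 cells and 25 of 26 fibroblasts. It found 0 of the 229 ciliated cells.

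The compartment labels were checked on genes that did not define them. All 29 cycling type 2 cells had Sftpb and Lamp3 and 28 had Nkx2-1, all markers of type 2 cells, and Pecam1, the CD31 gene, had a UMI in 1. All 26 cycling fibroblasts had Col1a1 and Pdgfra and 25 had Dcn, but 7 also had Sftpb and 3 had Pecam1. In the 62 cells of the leukocyte compartment Coro1a was found in 60 and Tyrobp in 52, so these cells carry leukocyte RNA despite the CD45 sort. Scrublet, which scores likely pairs of cells in 1 droplet, called 458 doublets in all (4.88%) and 4 among the cycling cells: 1 type 2 cell, 1 fibroblast and 2 of the 3 mixed cells.

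The cycling cells were deeper than the rest of their compartments. Cycling type 2 cells held 7406 to 27223 UMIs with a median of 15613, against a median of 9450 in the 1671 others, and cycling fibroblasts held 8351 to 50399 with a median of 17441, against 7799 in the other 6167. A deeper cell has more chance to show 3 markers, and a dividing cell holds more RNA, and these cannot be told apart here. Beside the comparison with all non-cycling cells, each cycling cell was therefore also compared with the 5 non-cycling cells of its compartment nearest in depth (145 and 130 cells, medians 15638 and 17437 UMIs).

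The 6 rule genes chose the cells, so their levels describe the choice and carry no test. In cycling type 2 cells Mki67 ranged from 0 to 25 UMIs with a median of 6 and Ccnb1 from 0 to 19 with a median of 0. In cycling fibroblasts Mki67 ranged from 1 to 34 with a median of 12, Top2a from 0 to 50 with a median of 21, Cenpf from 0 to 98 with a median of 21.5 and Ccnb1 from 0 to 30 with a median of 4.50. Summed over the 6 genes a cycling type 2 cell held 4 to 155 UMIs (median 16) and a cycling fibroblast 3 to 201 (median 91.5). The compartments overlap, but the fibroblasts mostly sit higher: 22 of 26 had all 6 genes, against 9 of 29 type 2 cells. Ccnb1, the cyclin that peaks at mitosis, was found in 23 of 26 fibroblasts and 13 of 29 type 2 cells. Near the threshold, the 12 cells with exactly 3 genes had a median of 5 rule UMIs and the 27 cells with exactly 2 a median of 3, and 230 cells had 1.

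**Figure D2:**
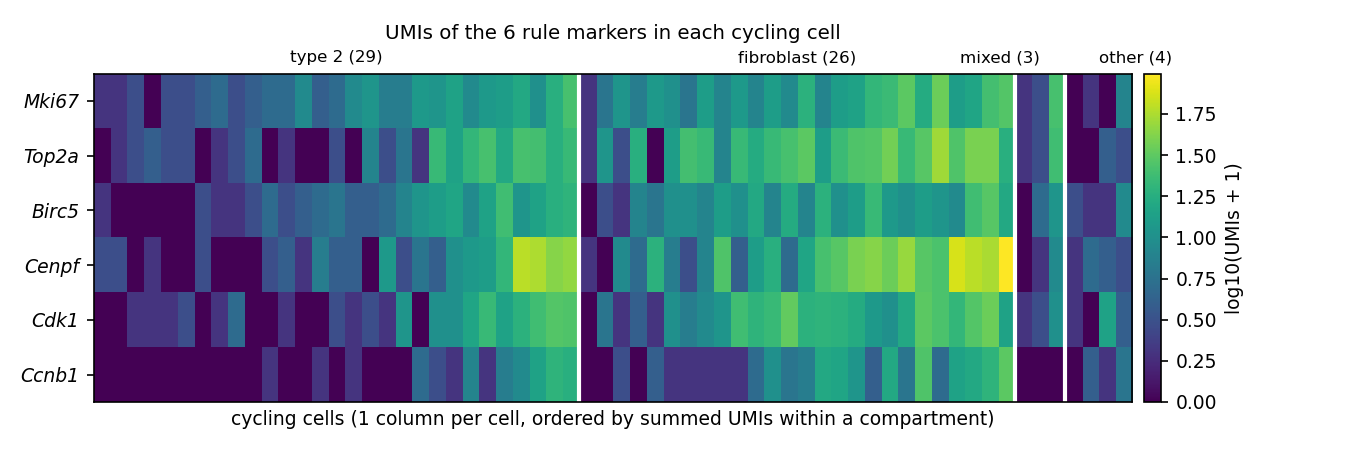
UMIs of the 6 rule markers (rows; colour is log10 of UMIs + 1) in each of the 62 cycling cells (columns), ordered by their sum within a compartment. Most of the 26 fibroblasts carry all 6 genes, while the left side of the type 2 block has few or no UMIs of Ccnb1, Cdk1 and Top2a.

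Replication and mitosis genes outside the rule showed how the members vary. The level of 36 replication genes (MCM subunits, Pcna, Rrm2 and others) ranged in cycling type 2 cells from 0 to 7106 CPM (UMIs per 1000000 UMIs of the cell) with a median of 805, against a median of 197 in the other type 2 cells. The summed level of the mitotic regulator and spindle lists ranged from 1513 to 30345 CPM with a median of 7309, against 679. In cycling fibroblasts the replication genes ranged from 258 to 9836 CPM (median 1030, others 280) and the mitotic lists from 1036 to 38535 (median 23680.0, others 787). The replication median of the cycling cells was reached by 58 of 1671 other type 2 cells (3.47%) and 61 of 6167 other fibroblasts (0.989%). Whether these cells were replicating was not tested, so the cells called non-cycling may include some that were. In 9 of 29 type 2 cells the replication list exceeded the mitotic lists, and in 0 of 26 fibroblasts. Those 9 cells had 3119 to 7057 CPM of replication genes, 9 of 9 had Top2a, 2 had Cenpf and 0 had Ccnb1, whereas 13 of the other 20 type 2 cells had Ccnb1. The median depth of the 9 cells was 16345 UMIs, near that of the other 20 (15265). The mitotic lists held 38.1 to 47.2% of the UMIs of the replication and mitotic lists together in these 9 cells. In the other 20 they held at least 69.5%, and 7 of all 29 lay between 40 and 60%. The mitotic lists also exceeded the replication list in 1433 of 1671 non-cycling type 2 cells (85.8%) and 5133 of 6167 non-cycling fibroblasts (83.2%). Cycling fibroblasts with 9836, 8051 and 7523 CPM of replication genes, among others, lay above the highest of the 9 type 2 cells (7057 CPM). The split therefore does not show that fibroblasts lack replication RNA. No cell cycle phase was called from this split.

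**Figure D3:**
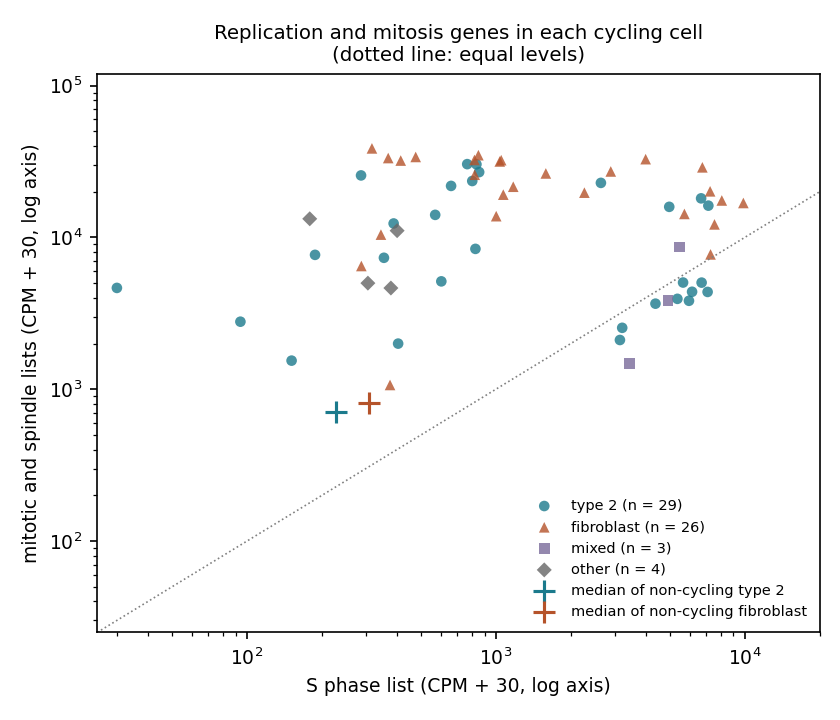
Level of the S phase list (horizontal, CPM + 30, log axis) against the mitotic and spindle lists (vertical, CPM + 30, log axis) in each cycling cell, with crosses for the medians of non-cycling cells. A set of 9 type 2 cells lies below the dotted line of equal levels, and every fibroblast lies above it.

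Outside the rule genes, cycling type 2 cells had high levels of replication and mitosis genes, while 3 of 10 surfactant and 0 of 12 lipid synthesis genes were low. CPM summed over the 29 cycling cells was divided by that over the 1671 others, for the 11186 genes with at least 30 UMIs in both sets together, and a ratio of at least 2 or at most 0.5 was counted as high or low. Over all measured genes 1532 were high (13.7%) and 1372 low (12.3%), and the median ratio was 1.11. Of the low genes 627 had no UMI in the cycling cells. With a counting interval that also excludes 1, 9.99% were high and 2.63% low. Of the replication list 32 of 32 measured genes were high with a median ratio of 10.2, of the replication-dependent histones 7 of 7 (median 5.22), of the mitotic cyclins, kinases and regulators 22 of 22 (median 182), of the spindle, kinetochore and cytokinesis list 24 of 24 (median 200) and of chromosome structure and chromatin 17 of 18 (median 8.50), none low in any of them. The rule used the same contrast and genes of the same programme, so these counts only describe the members. Dividing all ratios by their median gave 1194 high and 1595 low genes, so the balance of the 2 directions depends on the scaling.

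Ube2c stood at 884 against 0.366 CPM in type 2 cells, a ratio of 2411 (1099 to 6609). It was found in 13 of 29 cycling cells, ranged up to 4105 CPM in a cell and had a median of 0, so the sum rests on under 50% of the members. Cdc20, the activator of the anaphase-promoting complex, had 565 against 4.46 CPM, a ratio of 127 (97.5 to 167). Cenpa, the centromere histone, had a ratio of 221, the motor Cenpe 858 and the spindle-bundling Nusap1 435. Among replication genes Rrm2, the regulated subunit of ribonucleotide reductase, had 102 against 0.855 CPM, a ratio of 119 (64.7 to 234) and Mcm10 the lowest ratio, 2.51 (0.983 to 5.37). Stmn1 (stathmin, a tubulin-binding protein) was already present in non-cycling type 2 cells, at 2014 against 177 CPM, so its ratio was only 11.4, and it was found in 29 of 29 cycling cells.

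**Figure D4:**
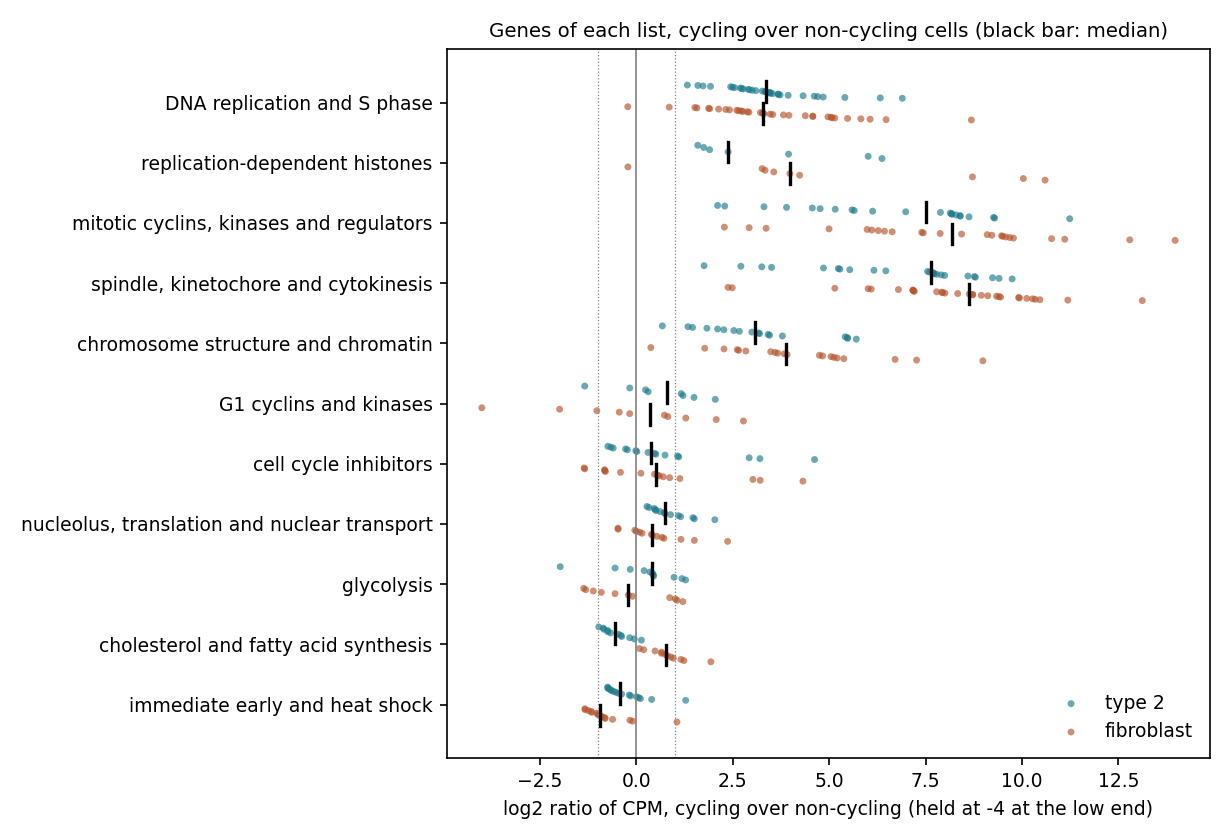
Ratio of CPM in cycling over non-cycling cells (log2, horizontal) for every measured gene of 11 lists, in type 2 cells and in fibroblasts, with the median as a black bar and dotted lines at 2-fold. The 5 cycle lists lie to the right in both compartments, with list medians from 5.22 to 397 as ratios, and the other lists lie nearer to 0.

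The genes that govern entry into the cycle differed less. Of 8 measured G1 cyclins and kinases 4 were high and 1 low (median ratio 1.74), against 13.7% high and 12.3% low over all genes. E2f3 at 4.14 (1.28 to 10.5), Myc at 2.83 (1.32 to 5.38), Cdk2 at 2.32 (1.30 to 3.84) and Cdk4 at 2.25 (1.71 to 2.90) were high. Ccnd2 (cyclin D2) was low at 0.397 (0.190 to 0.734). All 4 high calls were lost in the 14 type 2 cells chosen by the other 6 cycle genes, where 0 of 8 genes were high and 3 low (median 0.888) and E2f3 had no UMI. Ccnd1 (cyclin D1) stood at 367 against 296 CPM, a ratio of 1.24. Of 16 measured inhibitors 5 were high and none low (median 1.31), against 13.7% and 12.3% over all genes. After dividing all ratios by their median 3 were high. Cdkn2c (p18, an inhibitor of CDK4 and CDK6) was the highest, with 119 against 4.82 CPM, a ratio of 24.7 (17.2 to 35.2), and Cdkn2d (p19) followed at 9.25, Rbl1 (p107) at 7.62, Cdkn1a (p21) at 2.15 (1.72 to 2.65) and Cdkn1b (p27) at 2.10. After thinning to 5000 UMIs, Cdkn2c had a UMI in 12 of 29 (41.4%, 23.5 to 61.1%) cycling type 2 cells and 39 of 1593 (2.45%, 1.75 to 3.33%) others. For Cdkn1a the thinned shares were 9 of 29 (31.0%, 15.3 to 50.8%) and 446 of 1593 (28.0%, 25.8 to 30.3%), and its ratio against depth-matched cells was 1.89, under the threshold. The antiproliferative Btg2 had a ratio of 0.662 (0.553 to 0.787).

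Growth-related genes gave few calls. Of 14 measured genes of the nucleolus, translation and nuclear transport 5 were high and none low (median 1.67), against 13.7% and 12.3% over all genes. After dividing all ratios by their median 3 were high. Ran, the GTPase of nuclear transport and spindle assembly, stood at 506 against 123 CPM, a ratio of 4.11 (3.58 to 4.70). Ranbp1 had 2.84 and Nop58 2.77, while Npm1 had 1.26. Of 11 glycolysis genes 2 were high, Tpi1 at 2.43 and Pgk1 at 2.27, and 1 was low, shares near the 13.7% and 12.3% over all genes. The low gene was Aldoa (aldolase A), at 55.2 against 216 CPM, a ratio of 0.256 (0.167 to 0.375). After thinning to 5000 UMIs Aldoa had a UMI in 2 of 29 (6.90%, 0.846 to 22.8%) cycling type 2 cells and 990 of 1593 (62.1%, 59.7 to 64.5%) others. Hsp90aa1, a chaperone, had a ratio of 2.43, the only high gene among 16 immediate early and heat shock genes.

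Few surfactant and lamellar body genes passed the threshold. Of 10 measured, Sftpc apart, 3 were low and none high (median ratio 0.560), against 12.3% low over all genes. Slc34a2, the phosphate transporter of type 2 cells, ranged in cycling cells from 241 to 5798 CPM with a median of 1686, and the median of non-cycling cells was 4901. Its summed level was 2035 against 4796 CPM, a ratio of 0.424 (0.398 to 0.452). Lpcat1, an enzyme of surfactant lipid synthesis, ranged from 55.0 to 2443 CPM with a median of 502, with 1550.4 in the others, and a ratio of 0.478 (0.429 to 0.532). The ranges of both overlap with those of non-cycling cells, and most cycling cells lie below the non-cycling median. The remaining low gene, Pgc (progastricsin), had 0 UMIs in the cycling cells and 3.42 CPM in the others, and its ratio interval reaches 2.37.

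Sftpb (surfactant protein B) ranged from 2255 to 8957 CPM with a median of 5387 in cycling cells, so each of the 29 lay below the non-cycling median of 9968, and its ratio was 0.530 (0.510 to 0.552). Sftpa1 had 0.727 (0.709 to 0.745) and Lamp3 0.792 (0.728 to 0.859), while Sftpd was slightly higher at 1.21 (1.16 to 1.27) and the protease Ctsh at 1.32 (1.22 to 1.44). Sftpc, which defines the compartment, took 6.36 to 22.8% of the UMIs of a cycling cell (median 13.5%) and a median of 18.9% in the others. Against depth-matched cells the ratios were nearer to 1, at 0.536 for Slc34a2, 0.543 for Lpcat1, 0.615 for Sftpb and 0.787 for Sftpa1, and 0 of 9 measured genes of the list were then at or under 0.5 (median 0.665). All 4 stayed below 1, and the number past the threshold did not stay. Dividing all ratios by their median of 1.11 moved 5 of 10 to 0.5 or less.

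Of 14 type 2 identity genes 1 was low and none high, against 12.3% low over all genes, and none was low against depth-matched cells, while 5 were with cells chosen by the other 6 cycle genes. Nkx2-1, the lung transcription factor, differed little, at 293 against 314 CPM, a ratio of 0.933 (0.782 to 1.10), and so did Cd74 at 1.01. The low gene was Cxcl15 (lungkine), at 0.464 (0.441 to 0.488). Lyz2 (lysozyme) had 0.553 (0.540 to 0.566), which did not pass. Cebpa, a transcription factor of surfactant genes, had 0.523 (0.396 to 0.677). Of 12 measured cholesterol and fatty acid synthesis genes none was high or low, although 6 were low with cells chosen by the other 6 cycle genes. The median ratio was 0.679, with Scd1 (stearoyl-CoA desaturase) at 0.511.

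Among 13 measured genes of type 2 cell activation and transition 3 were high and 1 low, against 13.7% and 12.3% over all genes. After dividing all ratios by their median 1 was high. Krt8, a keratin of the transitional state between type 2 and type 1 cells, ranged from 52.2 to 2388 CPM with a median of 746 in cycling cells against a median of 252 in the others, with a ratio of 2.48 (2.24 to 2.74) and 2.03 against depth-matched cells. Its partner Krt18 had 1.86 and Sfn (stratifin) 2.17 (1.59 to 2.91). Il33, an alarmin cytokine of type 2 cells, was low at 0.431 (0.328 to 0.556) and 0.452 depth-matched, with a UMI after thinning in 11 of 29 (37.9%, 20.7 to 57.7%) cycling and 1048 of 1593 (65.8%, 63.4 to 68.1%) other type 2 cells. Of 10 type 1 cell genes none was high and 3 were low, against 12.3% low over all genes. However, 6 were low against depth-matched cells and 1 by the mean of per-cell CPM, so the count depends on the comparison. Hopx, a marker of type 1 cells, had a summed ratio of 0.379 (0.264 to 0.529), while its per-cell median was 64.0 CPM in cycling cells and 0 in the others, 1 of which reached 8902 CPM. Of 6 club and secretory cell genes 5 were low, against 12.3% over all genes, among them Scgb1a1 at 0.0860. Scgb3a2 had a UMI in 1 of 29 cycling and 92 of 1671 other cells, 1 of which reached 32402 CPM, so its low sum rests on few non-cycling cells. The Scgb1a1 sum of the non-cycling cells includes 1 cell with 506498 CPM of it, and the median cell had 160.0 CPM of it when cycling and 222 otherwise.

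**Figure D5:**
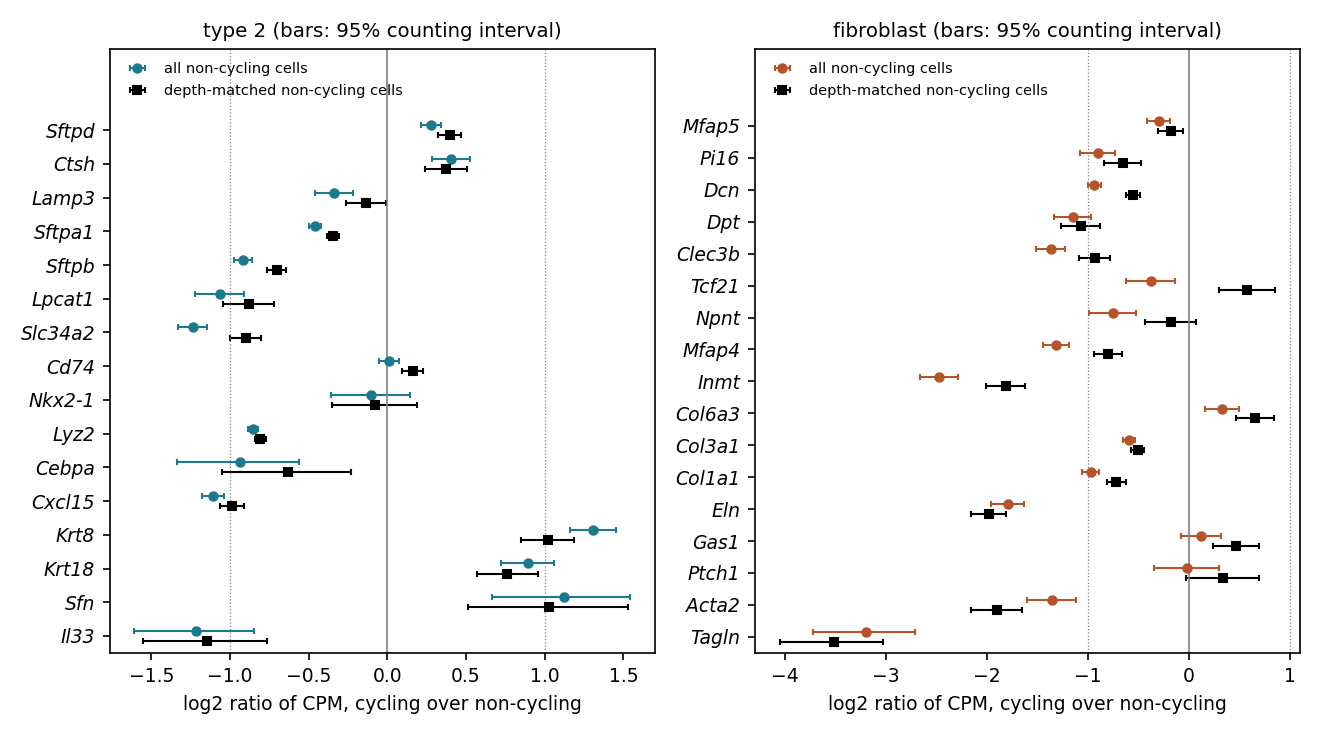
Ratio of CPM in cycling over non-cycling cells (log2, horizontal) for genes of identity and matrix in type 2 cells (left) and fibroblasts (right), against all non-cycling cells (coloured) and depth-matched ones (black), with 95% counting intervals. In type 2 cells Sftpb, Lpcat1, Slc34a2, Lyz2 and Cxcl15 lie left of 0 and Krt8, Krt18 and Sfn right of it in both, while in fibroblasts Tcf21 crosses 0 when depth is matched.

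Cycling fibroblasts carried the same programme, with higher median ratios than type 2 cells in 4 of the 5 cycle lists. Over 13747 measured genes 2293 were high (16.7%) and 2812 low (20.5%), with a median ratio of 1.05. With an interval that also excludes 1, the shares were 11.4% and 5.64%. Of the low genes 1505 had no UMI in the cycling cells. Of the replication list 33 of 35 measured genes were high (median 9.75), of the histones 8 of 9 (median 15.8), of the mitotic regulators 24 of 24 (median 291), of the spindle list 31 of 31 (median 397) and of chromatin 19 of 20 (median 14.7), and none was low. Pbk, a mitotic kinase, was nearly absent outside the cycling cells, at 309.9 against 0.0193 CPM, with 1 UMI in the 6167 others and 158 in 23 of 26 cycling cells. Hmmr, a spindle protein, had 516 against 0.0580 CPM (3 UMIs in the others), Aurkb, the kinase of the chromosomal passenger complex, 275 against 0.0387 CPM (2 UMIs), and Ube2c 1752 against 0.793 CPM, a ratio of 2208 (1614 to 3098). With so few UMIs in the non-cycling cells the ratios of Pbk, Hmmr and Aurkb have intervals that span more than 10-fold and are not given a rank.

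Hist1h2ap, a replication-dependent histone gene, had 812 against 0.774 CPM, a ratio of 1049 (757 to 1490.2), from 15 of 26 cells, and ranged from 0 to 5901 CPM with a median of 45.6. The groups thus overlap at 0, and the level rests on part of the members. Hist1h2bc, whose RNA is also found outside replication, had 0.862 (0.585 to 1.23). E2f1 was 1 of the 2 replication genes that were not high, at 0.860 (0.315 to 1.88), beside Tk1 (thymidine kinase) at 412 (231 to 781) and Rrm2 at 89.2 (67.0 to 119). Tuba1b, a tubulin of the spindle, stood at 1934 against 344 CPM, a ratio of 5.62 (5.27 to 5.99) in 26 of 26 cells.

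Entry genes in fibroblasts had 3 high and 3 low among 10 measured, against 16.7% high and 20.5% low over all genes. Against depth-matched cells 1 of 7 was high and 2 were low. Cdk2 had 4.21 (2.43 to 6.83) and Cdk4 1.77 (1.41 to 2.20). Myc was low, at 11.8 against 46.5 CPM, a ratio of 0.253 (0.0927 to 0.551), and Ccnd2 at 0.493 (0.351 to 0.675). Ccnd1 had 2.44 (1.59 to 3.60) against all non-cycling cells and 0.744 against depth-matched ones, a reversal. Of 16 measured inhibitors 4 were high and 2 low, against 16.7% and 20.5% over all genes. Cdkn2c ranged from 0 to 1066 CPM with a median of 457 in cycling fibroblasts, where the non-cycling median was 0, with a ratio of 9.29 (8.09 to 10.6), and Cdkn2d had 8.14 (6.92 to 9.52) and Rbl1 58.8 against 2.94 CPM. Cdkn2c, Cdkn2d and Rbl1 were thus high in both compartments. Cdkn1a had 1.63 (1.44 to 1.84). Btg2, at 881 against 2242 CPM, a ratio of 0.393 (0.357 to 0.431), and Tob1, at 0.397, both antiproliferative genes of 1 family, were low, and against depth-matched cells Btg2 stood at 0.575. Ran was high here too, at 5.17 (4.72 to 5.66), and Aldoa low, at 0.390 (0.302 to 0.495), with a UMI after thinning in 7 of 26 (26.9%, 11.6 to 47.8%) cycling and 3975 of 5024 (79.1%, 78.0 to 80.2%) other fibroblasts. Tpi1 stood at 2.31 and Pgk1 at 2.08.

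Cycling fibroblasts had low levels of alveolar fibroblast genes, and most lay on the adventitial side. Adventitial fibroblasts line vessels and airways and express Pi16 and Dpt, and alveolar fibroblasts lie in the gas-exchange walls and express Inmt, Npnt and Tcf21. The adventitial list exceeded the alveolar list in 23 of 26 cycling cells (88.5%, 69.8 to 97.6%) and in 3750 of 6167 others (60.8%, 59.6 to 62.0%). After thinning to 5000 UMIs the shares were 22 of 26 (84.6%, 65.1 to 95.6%) and 3348 of 5024 (66.6%, 65.3 to 67.9%), whose intervals overlap. Of 11 alveolar genes 8 were low and none high (median 0.402), and of 11 adventitial genes 3 were low and 1 high (median 0.577), against 20.5% low over all genes. The alveolar count was 5 against depth-matched cells. The adventitial count was 1 there and by the mean of per-cell CPM, 5 without the 4 cells described below that carry RNA of other types, and 6 with the 25 cells chosen by the other 6 cycle genes. Inmt, a methyltransferase, ranged from 0 to 2325 CPM with a median of 119 against a median of 2222 in the others, and its ratio was 0.181 (0.158 to 0.205), 0.284 depth-matched. Mfap4, a microfibril protein, had 0.402 (0.368 to 0.439), and Tcf21, a mesenchymal transcription factor, 0.769 (0.648 to 0.905) and 1.49 depth-matched, so its direction depends on the comparison cells. Pi16, a peptidase inhibitor family gene, ranged from 0 to 6142 CPM with a median of 325 against a median of 241, and Dcn (decorin) from 0 to 14738 CPM with a median of 3945 against 4163. The summed ratios of both, 0.535 and 0.522, lie below 1, while the per-cell median was higher in cycling cells for Pi16 and close for Dcn.

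Smooth muscle and pericyte genes were low in 10 of 13, against 20.5% over all genes, and the genes examined differed in how many non-cycling cells held them. Myh11, the smooth muscle myosin, had 0 UMIs in the 26 cycling cells against 106 CPM in the others (ratio interval up to 0.0682), where 382 of 6167 cells had a UMI. Tagln had a summed ratio of 0.109 (0.0758 to 0.153), with a UMI in 8 of 26 cycling and 2031 of 6167 other cells, so no order is read from either. Acta2 (smooth muscle actin) was low by its sum, at 0.392 (0.330 to 0.462), yet had a UMI after thinning in 12 of 26 (46.2%, 26.6 to 66.6%) cycling and 1025 of 5024 (20.4%, 19.3 to 21.5%) other fibroblasts, so no order is read from it. Single non-cycling cells held up to 42345 CPM of Acta2. Pdgfrb, by contrast, had the lower share in cycling cells. After thinning it had a UMI in 3 of 26 (11.5%, 2.45 to 30.2%) cycling and 1620 of 5024 (32.2%, 31.0 to 33.6%) other fibroblasts. Of 12 cholesterol and fatty acid synthesis genes 3 were high and none low (median 1.72), against 16.7% and 20.5% over all genes. Of 25 collagen and matrix genes 2 were high and 2 low, against the same 16.7% and 20.5%. Eln (elastin) ranged from 0 to 3738 CPM with a median of 415 against a median of 1027, with a ratio of 0.289 (0.257 to 0.323) and 0.253 depth-matched. Lum (lumican) was the other low gene at 0.473 (0.390 to 0.568). Col1a1 had 0.509 (0.479 to 0.541) and Col6a3 1.25 (1.12 to 1.40). The high pair was Postn (periostin), at 2.70 (2.08 to 3.46) and 1.09 depth-matched, and Cthrc1, at 2.29 (1.21 to 3.94) and 0.512, which were found in 6 and 5 of 26 cells. Of 16 immediate early and heat shock genes 6 were low (median 0.519), against 20.5% over all genes. Junb, among them, had 0.399 (0.376 to 0.424). None of 16 was low against depth-matched cells (median 0.698).

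The mouse line reports on hedgehog signalling. Of 13 hedgehog genes measured, none was high and 2 were low, against 16.7% high and 20.5% low over all genes. Against depth-matched cells 2 were high and 2 low. In the main comparison the low ones were Foxl1 at 0.125 (0.00315 to 0.696) and the co-receptor Cdon at 0.376 (0.210 to 0.621). Foxl1 had 1 UMI in the cycling fibroblasts. The receptor and target gene Ptch1 ranged from 0 to 539.7 CPM with a median of 136 in cycling fibroblasts against a median of 74.1, with a ratio of 0.986 (0.785 to 1.22). A Gli1 UMI was found in 6 of 26 cycling fibroblasts (23.1%, 8.97 to 43.6%) and 928 of 6167 others, but after thinning in 1 of 26 (3.85%, 0.0973 to 19.6%) and 486 of 5024 (9.67%, 8.87 to 10.5%), so no difference could be read at this depth. Egfp, the RNA of the switched reporter, reached 1000 CPM in 9 of 26 cycling fibroblasts (34.6%, 17.2 to 55.7%) and 2524 of 6167 others (40.9%, 39.7 to 42.2%), and in 0 of 29 cycling type 2 cells, which allows up to 11.9% by the exact interval. Egfp under 200 CPM was seen in 6 of 26 cycling and 2767 of 6167 other fibroblasts (44.9%). After thinning, an Egfp UMI was found in 22 of 26 (84.6%, 65.1 to 95.6%) cycling and 3124 of 5024 (62.2%, 60.8 to 63.5%) other fibroblasts, while the thinned level was 1069 against 1412 CPM, so the share goes against the level and no order is read.

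RNA of other cell types moved with the fibroblast result. Surfactant genes were high in 8 of 9 (median 5.61) and endothelial genes in 5 of 9 (median 2.16) in cycling fibroblasts, against 16.7% over all genes. So were 6 of 10 type 1 and 5 of 6 ciliated cell genes. Of the 26 cells 3 held at least 100 Sftpc UMIs, against 0.632% of other fibroblasts, and 2 held at least 5 Pecam1 UMIs (13 and 14). The cell with 13, a doublet call, held 1539 Sftpc, 133 Ager, 30 Msln and 14 Ccdc153 UMIs. The cell with 14 held 4 Col1a2 and 17 Cdh5 UMIs and no Dcn. Without cells past either limit, 22 of 6146 fibroblasts cycled (0.358%). The summed endothelial list ranged from 0 to 6451 CPM over the 26 cells with a median of 105, near the median of 95.4 in the others, and 9 of its 10 genes had a UMI. Without the 4 cells concerned, 1 of 9 surfactant genes was high and 3 were low, 1 of 9 endothelial and 1 of 12 cholesterol and fatty acid synthesis genes was high, and growth factor and receptor genes, of which 4 of 22 were high with the 4 cells, had none of 21 high and 9 low. Kit, for example, went from 6.18 to 0. In 21 of the remaining 22 cells (95.5%, 77.2 to 99.9%) the adventitial list exceeded the alveolar list, without thinning. No share of the other fibroblasts was computed for this setting, so the value is not compared. The ratios without the 4 cells were 0.154 for Inmt, 0.315 for Eln, 10.7 for Cdkn2c and 2543 for Ube2c. Over all genes 1821 were then high and 4097 low of 13666, so the balance of calls rests in part on these 4 cells. They include the deepest cycling fibroblast, with 9.89% of the UMIs of the 26, so leaving them out also lowers the summed depth. The part of the shift due to depth was not tested. Against depth-matched cells, with the 4 cells kept, 0 of 9 surfactant genes (median 1.06) and 7 of 8 endothelial genes were high. The part of this RNA in the other fibroblast values was not tested. In cycling type 2 cells, 13 of 18 macrophage and monocyte markers, 8 of 10 endothelial and 6 of 6 erythroid genes were at 0. However, 5 of 8 measured smooth muscle and pericyte genes were high there and 2 low (median 2.32). Of 6 peribronchial fibroblast or myofibroblast genes 3 were high, against 13.7% over all genes. Without doublet calls 0 of 8 smooth muscle and pericyte genes were high and 7 low, and 1 of 4 peribronchial genes was high. The type 2 cell called a doublet held 38 Acta2 and 13 Hhip UMIs.

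Among the 7 cycling cells outside both compartments, 4 met no compartment rule, and the genes named for them were chosen after their values were seen. One, with 37313 UMIs, held 6439 UMIs of Igkc, 1624 of Igha, 766 of Jchain and 195 of Mzb1, the genes of antibody-secreting plasma cells, with all 6 rule genes and no UMI of Ptprc or Col1a2. Of the 10 kept cells with at least 100 Jchain UMIs, 5 had a Ptprc UMI and this cell was the only one that cycled. A cell with plasma cell RNA was thus outside the Ptprc compartment and cycling by the rule. Another, with 24266 UMIs, held 6403 UMIs of Scgb1a1 (club cell secretoglobin), 25 of the ciliated cell gene Foxj1 and 13 of Cdk1. The same cell held 24 UMIs of Deup1, 19 of Ccno and 4 of Mcidas, genes with which a cell builds the many centrioles of its cilia. It was the only kept cell with at least 5 Deup1 UMIs, it had no Mki67 UMI, and it did not meet the rule on the other 6 cycle genes. Another, the ciliated background cell (10874 UMIs, 48 Tppp3 and 28 Ccdc153), had 2 Birc5, 1 Cenpf and 1 Cdk1 UMIs and no Mki67. The last, with 6729 UMIs, held 75 of Chia1, 35 of Epcam, 313 of Scgb1a1 and 149 of Sftpc. The 3 mixed cells held 23488 to 33124 UMIs, with 1761 to 3813 of Sftpc and 5 to 42 of Col1a2.

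In the leukocyte compartment no comparison with non-cycling cells could be made, since it held no cycling cell. Its 62 cells had a median of 6550 UMIs, and 1 of them had 2 of the 6 markers.

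The authors' deposited table of 17 clusters placed the rule genes in the same 2 kinds of cells. In the authors' deposited table, all 6 were higher with an adjusted p under 0.05 in clusters 4 and 11 and in no other. The authors' deposited table gives cluster 11 a mean count of 39.6 for Col1a2 and 4.01 for Sftpc, with log2 fold changes of 3.74 for Top2a (adjusted p 1.13e-16) and 4.58 for Ccnb1 (adjusted p 1.58e-20). The authors' deposited table gives cluster 4 a mean count of 1201 for Sftpc, with log2 fold changes of 1.68 for Top2a (adjusted p 6.48e-05) and 1.41 for Ccnb1 (adjusted p 0.00617). Other clusters of the authors' deposited table hold more Sftpc or Col1a2 and less of every rule gene. Among them, cluster 5 has a mean Sftpc count of 1504 and a Top2a log2 fold change of -2.79. Clusters 2 and 3 have mean Col1a2 counts of 72.3 and 79.4 and Top2a log2 fold changes of -4.54 and -2.94. The authors' deposited table gives Mki67 a mean count of 0.356 in cluster 11, 0.200 in cluster 4 and 0.319 in cluster 17, the last with a log2 fold change of 2.40 and an adjusted p of 1. The test behind these p-values is not given in the sources used here, and no file used here assigns barcodes to these clusters.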

How the data were processed

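Live CD45-negative, CD31-negative mouse lung cells were profiled with the 10x 3′ kit. Cell Ranger 3.0.0 and build mm10 are named in the submitters' processing notes. The deposited matrix holds UMI counts, not normalized, of 31055 features in 11118 barcodes, 85746975 UMIs in all; the run summary gives 25464 mean reads per cell. In the cluster table the authors deposited mean counts per cluster, log2 fold changes and adjusted p-values, per the file headers; the test is not given in the sources used here.

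Barcodes with under 500 genes (1296) or over 10% mitochondrial UMIs (1545) were left out, 1727 in all, of which 7 had at least 3 rule genes. Levels are CPM: UMIs summed over cells, per 1000000. Ratios were computed for genes with at least 30 UMIs in both sets together, with exact conditional binomial intervals; shares have Clopper-Pearson intervals. Both, at 95%, cover counting error only. The 4 sample entries count as 1 sample, so there is no test and no p-value of this work. Doublets were scored with Scrublet in scanpy 1.11.5 and kept. Thinning drew 2000 or 5000 UMIs per cell. Genes could be named from the rule genes, the 12 highest and 12 lowest ratios per compartment (at least 100 UMIs and 50 CPM), up to 4 highest and 4 lowest of each list, and all G1, inhibitor and hedgehog genes; any other gene was chosen after its values were seen. Members and lists were chosen with earlier results of these data known. Ratio scripts were tested on simulated data. Python 3.11.15, scipy 1.17.1 and pandas 2.3.3 were used.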

Additional observations from a re-analysis of the deposited data

How the results depend on the processing

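With 1 sample no replicate could be left out and no test was made. No paired analysis was possible because all cells form 1 sample. Among type 2 genes, high calls were 706 against depth-matched cells, 906 with at least 100 UMIs and 3117 at a fold of 1.5. Low calls there were 655, 692 and 2186 under these settings, 2294 with at least 10 UMIs, 2531 with cells chosen by the 6 other cycle genes and 294 with an interval that excludes 1. Fibroblast high calls were 1064 against depth-matched cells and 3935 at a fold of 1.5, and low calls 1020 against depth-matched cells, 1861 with at least 100 UMIs and 776 with an interval that excludes 1. Fewer genes or cells enter most of these. The share of cycling cells was 0.948% with at least 2 markers, 0.447% with the 6 other genes and 0.349% thinned to 2000 UMIs, and in type 2 cells 2.59%, 0.824% and 0.710%. Among named genes called high or low, those whose ratio crossed 1 were E2f3 in type 2 cells (0 with the 6 other genes) and, in fibroblasts, Ccnd1 (0.744) and Cthrc1 (0.512) against depth-matched cells and Kit (0) without the 4 cells with RNA of other types; the cause was not tested. Tcf21 in fibroblasts, which was not called, also crossed 1 (1.49 against depth-matched cells).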
